A study of Mus musculus with 21 samples.

Results

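The interaction of a tumor and doxorubicin (DOX) in the mouse heart was measured over all 21 heart libraries of the series, as the difference between the change with DOX in tumor-bearing mice and the change with DOX in non-tumor-bearing mice. It was tested in each of the 13990 genes with a mean FPKM (counts scaled to the length of the gene and the depth of the library) of at least 0.5, which are 24.7% of the 56691 genes in the table. The groups were Control (non-tumor-bearing, saline; 5 libraries), DOX (non-tumor-bearing, DOX at 5 mg/kg by intraperitoneal injection once weekly for 3 weeks; 5 libraries), Tb (tumor-bearing, saline; 6 libraries) and Tb-DOX (tumor-bearing, the same DOX course; 5 libraries). The tumors came from 4T1, a murine breast cancer line, injected under the skin. Strain, sex and age are not given in the sources used here, and all hearts come from 1 time point, so the course of a response was not measured. The labels give the tumor line as the source of every library. The cardiomyocyte markers, which include *Myh6*, *Tnnt2* and *Ryr2* and are defining genes of heart muscle, summed to between 48509 and 90896 CPM (TMM-scaled counts relative to the library's total in the genes tested) in every library.

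Doxorubicin is an anthracycline that traps topoisomerase II on DNA and takes part in redox cycling, and its use is limited by injury to the heart muscle. The heart's fibroblasts make collagens and other matrix proteins, its vessels are lined by endothelial cells, and stressed heart cells switch on transcription factors such as ATF4, which drives amino acid uptake and glutathione supply. Growing 4T1 tumors are known to raise neutrophils in blood and organs. If tumor and DOX acted independently on a gene, its change with DOX on the log2 scale would be equal in both states and the interaction would be 0. A positive interaction says that the level after DOX, relative to the matching saline group, was higher with a tumor than without one, and a negative interaction says that it was lower.

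An interaction was called where the edgeR p, adjusted by Benjamini and Hochberg's method over all genes tested, was under 0.05 and the value was at least 1 in size on the log2 scale. It was called in 544 genes, 3.89% of the genes tested, of which 285 were positive (2.04%) and 259 negative (1.85%). The median absolute interaction was 1.48 in the called genes and 0.34 in all genes tested, where the median standard error (SE) was 0.24. Values after ± are the SE of an interaction, derived from edgeR's test as the absolute interaction divided by the square root of its F statistic. In the positive genes the median log2 change with DOX was −1.36 in non-tumor-bearing mice and 0.03 in tumor-bearing mice. In the negative genes it was 1.59 and −0.22. Both sets therefore moved with DOX mainly in hearts without a tumor, in opposite directions. DOX changed 9.95% of all genes tested without a tumor and 1.11% with one, by the same limits. The 2 changes with DOX share no library, but each shares its libraries with the interaction, so these medians describe the calls and do not test them. Read by tumor, the change with a tumor had a median of −0.45 under saline and 0.96 under DOX in the positive genes, and of 0.69 and −0.95 in the negative genes, where 3.6% and 5.62% of all genes tested changed.

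**Figure D1:**
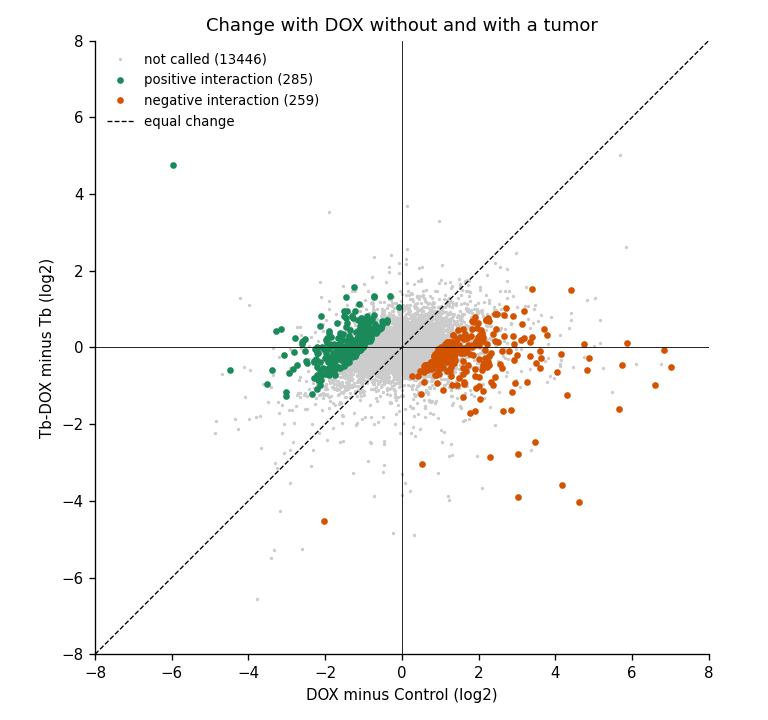
Log2 change with DOX in non-tumor-bearing mice (horizontal axis) and in tumor-bearing mice (vertical axis) for each gene tested, where 1 gene lies outside the axes. Green points are the 285 genes with a positive interaction, orange points the 259 with a negative one, gray points the rest, and the dashed line marks equal change; most colored points lie near the horizontal line at 0, left or right of the center.

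Of the refits with 1 library fewer, those without DOX 3 and without DOX 4 gave the fewest calls, 318 and 339, and voom's sample weights were lowest for Tb 5 within Tb (0.125), followed by Tb 6 (0.478). DOX 3 (0.393), Control 3 (0.418) and DOX 4 (0.447) also had weights below that of Tb 6. The refit without Control 3 gave 414 calls. Without DOX 3 and 4 the count of calls was 75, of which 69 were among the 544. Without Tb 5 and 6 it was 364, of which 316 were among the 544. These 2 settings were added after the data were seen. Of the 61 genes chosen for naming, 17 were called without DOX 3 and 4 (*Cd200*, *Col15a1*, *Gclc*, *Gpr17*, *H19*, *Mfsd7a*, *Mir22hg*, *Noxred1*, *Peg3*, *Pi16*, *Plagl1*, *Pop4*, *Slc7a1*, *Srsf5*, *Ssu2*, *Stab1* and *Tnp1*), 42 were called without Tb 5 and 6, 51 with library totals and 33 with the replicate number as a block. Depth was 13521200 to 18601445 counts per library, and mitochondrial genes took 14.6% to 28.9% of the counts. With library totals in place of TMM, the median over all genes moved to 0.14 and 73.6% of 641 calls were positive, in place of 52.4%, so the balance of positive and negative calls depends on the scaling. The sum of the cardiomyocyte markers was 56878 to 74434 CPM in Control, 76691 to 90896 in DOX, 48509 to 57887 in Tb and 63561 to 79697 in Tb-DOX, with 0 of its 10 members called by edgeR, DESeq2, limma or voom and 2 at an unadjusted p under 0.05, and its part in the results was not tested.

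To see in which group the additive expectation failed, each gene was described by its 4 group means of log2 CPM. A group was taken as apart where its distance to the nearest other group was larger than the range of the other 3. DOX alone stood apart in 311 of the 544 called genes (57.2%), 172 of them lower than the other groups and 139 higher. Control stood apart in 45, Tb-DOX in 6 and Tb in 1. A further 117 were crossed, with Control and Tb-DOX both above or both below DOX and Tb, and 64 were graded. Of all genes tested, 26.4% had DOX apart, 12.4% Control apart, 6.74% Tb-DOX apart and 6.99% Tb apart, 11.9% were crossed and 35.5% graded, where crossed genes were 21.5% of the calls. In this description, departures lay most often in the hearts of DOX-treated mice without a tumor, which the tumor-bearing DOX hearts did not follow.

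**Figure D2:**
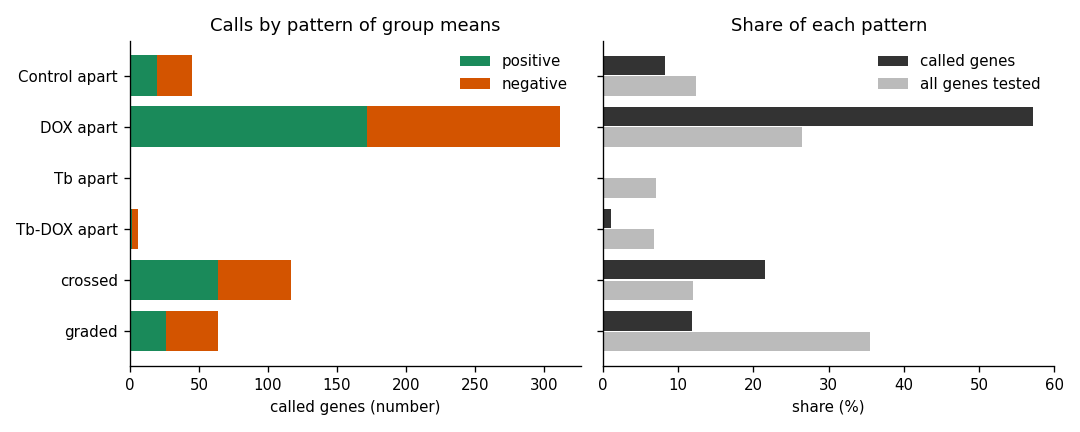
Called genes by pattern of their 4 group means, as numbers split into positive (green) and negative (orange) interactions on the left, and as shares of the called genes (black) and of all genes tested (gray) on the right. DOX apart holds 311 of the 544 calls.

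A stricter view asks for libraries that do not overlap. All 5 DOX libraries lay below all 16 others in 51 called genes and above them in 28. Over all genes tested these counts were 273 (1.95%) and 239 (1.71%). All 5 Control libraries lay above the others in 15 called genes and below them in 32, against 87 (0.622%) in each direction among all genes tested. For Tb and for Tb-DOX there was no such called gene in either direction, against 13 genes low and 13 high for Tb and 17 low and 6 high for Tb-DOX among all genes tested. The called genes also differed in kind: by the biotypes of an older annotation matched on gene ID, long noncoding RNAs made up 7.79% of 13650 genes tested, 14.0% of 278 positive and 22.9% of 253 negative calls that have a biotype. Median exonic lengths were close, at 3840 bases in all genes tested, 3890 in the positive and 3690 in the negative calls.

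Of the positive calls with DOX apart, *Cd34* had among the smallest p-values. *Cd34* encodes a surface sialomucin of endothelial cells and of stromal progenitors and lies at chr1:194621127-194643587 in the table, on the GRCm39 build that the submitters' notes name. Its level was 141, 130.3, 147, 157 and 143 CPM in the 5 Control libraries and 65.9, 49.8, 50.5, 44.2 and 55.6 CPM in the 5 DOX libraries. It was 125 to 161 (median 150.2) CPM in the 6 Tb libraries and 126, 107, 101, 134 and 89.5 CPM in the 5 Tb-DOX libraries. All DOX libraries lay below all others, and the Tb-DOX libraries mostly lay between DOX and Tb. The interaction was 1.02 ± 0.15, adjusted p = 0.00625. This value sits at the limit of 1, and *Cd34* fell short of the limit in 7 of the 21 refits with 1 library fewer (Control 4, DOX 2, 3 or 4, Tb 3, Tb-DOX 1 or 4), over which it ranged from 0.94 to 1.11.

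*Pi16* (chr17:29536654-29549567) encodes a peptidase inhibitor that marks adventitial fibroblasts. It stood at 60.7, 63.6, 86.7, 62.1 and 43.8 CPM in Control and at 15.1, 8.53, 2.73, 7.17 and 10.5 CPM in DOX. In tumor-bearing mice it stood at 50.2 to 71.5 (median 61.4) CPM with saline and at 42.5, 46.8, 39.8, 52.4 and 24.6 CPM with DOX. The DOX libraries were lowest without overlap, while Tb-DOX overlapped Control and, in 1 library, Tb. The change with DOX was −2.85 without and −0.56 with a tumor, and the interaction of 2.29 ± 0.37 (adjusted p = 0.00753) held in each of the 21 refits.

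*Stab1* encodes a scavenger receptor of macrophages and sinusoidal endothelium. Its CPM values were 52.0, 52.9, 49.5, 50.3 and 45.6 in Control and 23.2, 15.7, 18.2, 19.3 and 22.2 in DOX. They were 24.0 to 45.7 (median 40.6) in Tb and 36.9, 29.9, 34.1, 44.3 and 30.5 in Tb-DOX. Each DOX library lay below each of the other 16, while Tb and Tb-DOX overlapped. The interaction was 1.19 ± 0.20, adjusted p = 0.00753. *Cd200*, which encodes a membrane glycoprotein that restrains myeloid cells, had an interaction of 1.19 ± 0.20 (adjusted p = 0.00753), with group means of 67.7 CPM in Control, 31.4 in DOX, 44.1 in Tb and 46.8 in Tb-DOX. In *Sh3glb2*, which encodes an endophilin family protein, the interaction was 1.14 ± 0.19 (adjusted p = 0.00753). *Sh3glb2* fell under the limit on size without DOX 3 and 4 (0.95), and *Cd200* did so without Tb 5 and 6 (0.995).

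*Noxred1*, which encodes a protein with an oxidoreductase domain, was a gene of low level. It had 2.06, 1.19, 2.23, 2.72 and 2.29 CPM in Control and 0.338, 0.0776, 0.133, 0.403 and 0.0795 CPM in DOX. With a tumor it had 0.666 to 3.40 (median 1.97) CPM without DOX and 4.32, 1.27, 2.75, 2.80 and 2.45 CPM with it. DOX lay below every other library, and the other 3 groups overlapped. The interaction was 3.72 ± 0.63, adjusted p = 0.00753.

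*Mfsd7a* (chr5:108588920-108596966), a membrane transporter gene of the major facilitator superfamily, showed the crossed pattern. The 5 Control hearts had 4.45, 6.09, 6.87, 4.22 and 4.58 CPM and the 5 DOX hearts 2.71, 2.17, 1.53, 2.18 and 2.31 CPM. The tumor-bearing hearts had 2.00 to 4.93 (median 4.07) CPM without DOX and 5.67, 5.70, 5.79, 8.81 and 6.82 CPM with DOX. Tb-DOX lay above every Tb library, and DOX below every Control library. The change with DOX was −1.27 without a tumor and 0.77 with one, and the interaction was 2.04 ± 0.31 (adjusted p = 0.00625), a value that moved between 1.91 and 2.13 when 1 library was left out. *Mfsd7a* was not called by limma on log2(FPKM + 1).

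**Figure D3:**
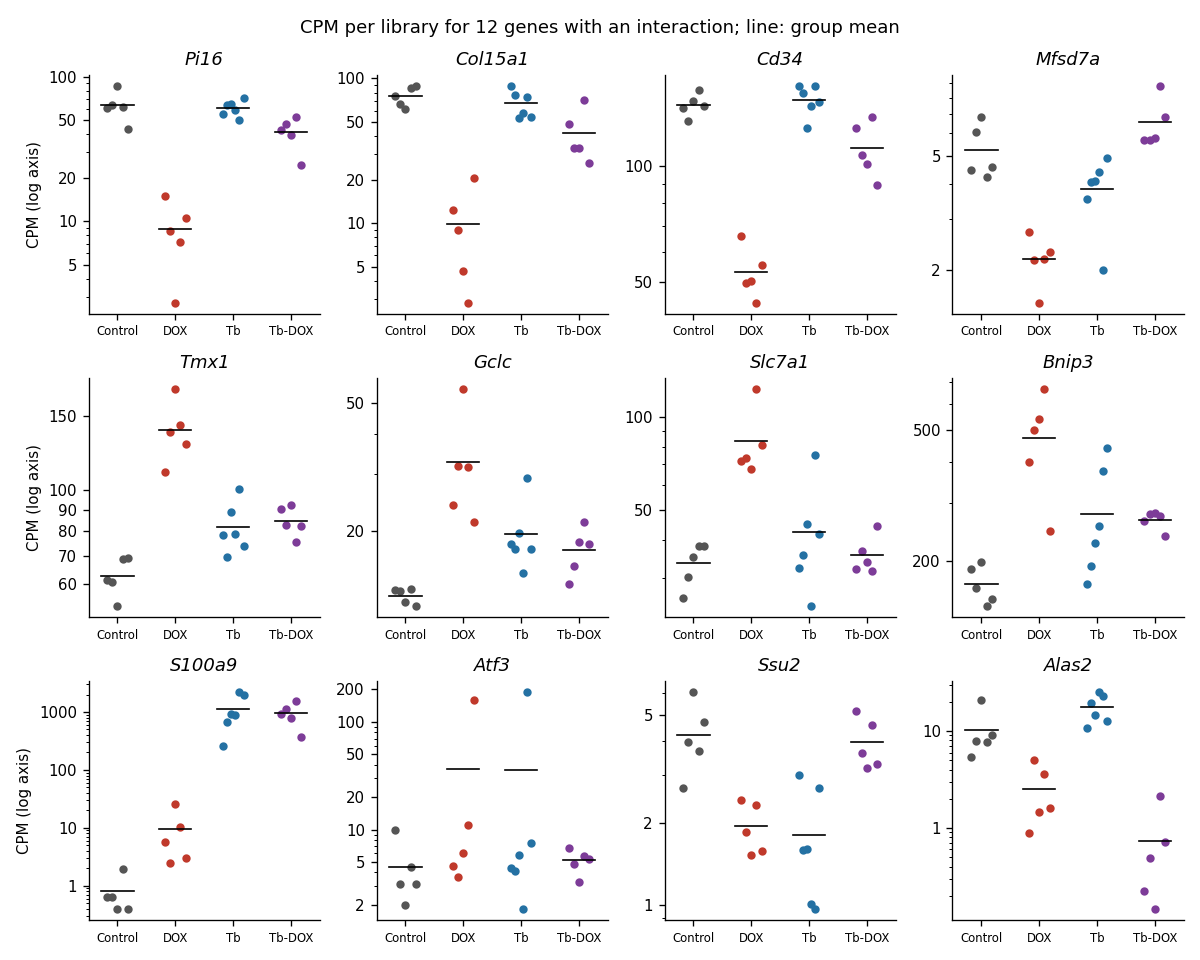
CPM on a log axis in every Control (gray), DOX (red), Tb (blue) and Tb-DOX (purple) library for 12 genes with a called interaction, with the group mean as a line. In the upper row DOX is low for *Pi16*, *Col15a1*, *Cd34* and *Mfsd7a*, in the middle row it is high for *Tmx1*, *Gclc*, *Slc7a1* and *Bnip3*, and the bottom row holds *S100a9* and *Alas2*, with graded group means, and *Atf3* and *Ssu2*, which are crossed like *Mfsd7a*.

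Of all lists used, collagen chains, which fibroblasts make, held the most positive calls. Of 17 collagen chain genes tested, 8 were called positive and 0 negative, 47.1% against 2.04% of all genes tested called positive. The list was chosen with earlier results of these data known, so its count is a description. The 8 were *Col1a1* and *Col1a2* of fibrillar collagen I, *Col5a1* of collagen V, *Col6a1*, *Col6a2* and *Col6a3* of beaded-filament collagen VI, *Col15a1* of the basement membrane zone and *Col16a1*. The median interaction of the list was 1.22, against −0.003 over all genes tested, and 14 of 17 members were above 0. The median log2 change with DOX over the list was −1.76 without and −0.71 with a tumor, and by the limits used here 13 of 17 members fell without a tumor and 4 with one. Under library totals 11 members were called, without Tb 5 and 6 there were 6, and without DOX 3 and 4 there was 1, *Col15a1*, with a median of 0.93. In bulk tissue fewer cells of a type and less RNA per cell cannot be told apart. The summed fibroblast markers, *Col1a1* among them, were 2141 to 2298 CPM in Control, 1707 to 1925 in DOX, 1477 to 1987 in Tb and 1327 to 1873 in Tb-DOX. This sum had its lowest mean in Tb-DOX, whereas the means of *Col15a1*, *Col5a1* and *Col1a1* were lowest in DOX. Member by member the fibroblast markers went with the collagens, with 7 of 10 above 0, a median interaction of 0.48 and a median change with DOX of −0.80 without and −0.41 with a tumor, where 4 and 0 members were called lower. Only *Col1a1* of the 10 was called, and the part of these markers in the collagen result was not tested.

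*Col15a1* encodes a proteoglycan collagen that ties capillaries and muscle fibers to their surroundings. Control libraries held 75.7, 66.6, 61.5, 86.3 and 88.5 CPM, DOX libraries 12.4, 8.997, 4.66, 2.82 and 20.5 CPM. Tb libraries held 53.6 to 89.2 (median 66.1) CPM and Tb-DOX libraries 48.4, 33.0, 33.2, 70.5 and 26.1 CPM. The DOX libraries were lowest without overlap, and Tb-DOX reached into the range of Tb. The interaction was 2.26 ± 0.47, adjusted p = 0.0129, and it was 1.76 without DOX 3 and 4. *Col5a1*, whose chain nucleates collagen fibrils, had 50.3, 42.8, 33.9, 45.6 and 46.6 CPM in Control, 19.4, 11.8, 10.9, 6.77 and 15.7 in DOX and 16.3, 20.7, 24.5, 26.4 and 23.6 in Tb-DOX, with 22.4 to 42.7 (median 26.5) in Tb. Here Tb was itself below Control in its mean, the group means were graded, and the interaction was 1.35 ± 0.30 (adjusted p = 0.0156). *Col1a1*, the main chain of fibrillar collagen, had group means of 61.8, 13.6, 41.1 and 22.9 CPM in Control, DOX, Tb and Tb-DOX (SD 11.9, 5.26, 13.2 and 7.77). Its interaction was 1.35 ± 0.36 (adjusted p = 0.0288), lost without DOX 3, DOX 4 or Tb-DOX 4, with a range of 1.14 to 1.49 over the refits. For *Col6a2* the interaction was 1.51 ± 0.35, adjusted p = 0.0164.

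The sequences before the start sites of 2 collagen genes and of 2 genes of the amino acid stress response, described further on, are shown as examples of called genes. The collagen genes were low and *Slc7a1* high in DOX hearts, while *Atf3* was high in DOX 5 and Tb 5 only. They come from the RefSeq promoter table. Each run is the 250 bases before the annotated start, 5′ to 3′ on the gene's strand, with positions on GRCm38.p6. Capitals mark matches, on either strand, to GGGCGG (the GC box) or TGATGNAA (the core that ATF4 dimers with C/EBP proteins bind). CCAAT and TGACGTCA were also searched and have no match in these 4 runs.
Col15a1, chr4:47207762-47208011, plus strand: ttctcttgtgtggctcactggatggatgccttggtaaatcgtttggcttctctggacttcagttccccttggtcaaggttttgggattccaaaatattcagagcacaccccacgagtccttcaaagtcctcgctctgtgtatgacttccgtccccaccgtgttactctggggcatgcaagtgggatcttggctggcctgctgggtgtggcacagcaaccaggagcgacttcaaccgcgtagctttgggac
Col5a1, chr2:27886175-27886424, plus strand: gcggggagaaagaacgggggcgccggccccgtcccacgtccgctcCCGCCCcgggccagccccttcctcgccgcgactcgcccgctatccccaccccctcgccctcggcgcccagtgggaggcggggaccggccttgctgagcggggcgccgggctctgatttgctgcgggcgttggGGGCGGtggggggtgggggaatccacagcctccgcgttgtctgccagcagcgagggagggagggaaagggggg
Slc7a1, chr5:148399905-148400154, minus strand: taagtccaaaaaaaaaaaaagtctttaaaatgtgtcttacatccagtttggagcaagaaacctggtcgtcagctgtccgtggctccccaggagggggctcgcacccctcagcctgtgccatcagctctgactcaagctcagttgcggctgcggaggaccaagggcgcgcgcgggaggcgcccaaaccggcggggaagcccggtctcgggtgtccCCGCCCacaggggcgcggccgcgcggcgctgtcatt
Atf3, chr1:191183334-191183583, minus strand: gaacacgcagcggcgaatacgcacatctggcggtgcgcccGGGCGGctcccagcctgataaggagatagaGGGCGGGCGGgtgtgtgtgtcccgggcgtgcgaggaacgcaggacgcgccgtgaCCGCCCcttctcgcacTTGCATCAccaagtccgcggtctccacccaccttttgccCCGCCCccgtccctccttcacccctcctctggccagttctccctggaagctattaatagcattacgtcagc
Of 32851 promoter windows of this length, 32.7% hold GGGCGG, 3.45% TGATGNAA, 33.8% CCAAT and 1.55% TGACGTCA. *Atf3* held 1 match to TGATGNAA, read on the strand opposite to the printed run and 110 bases before the start, and 5 to GGGCGG, 2 of which overlap each other. *Col5a1* held 2 matches to GGGCGG, *Slc7a1* held 1 and *Col15a1* none. The 2 collagen windows differed in base composition, with 53.6% G and C in *Col15a1* and 76.4% in *Col5a1*. *Slc7a1* has 2 windows in the table and the first is shown. A match is a run of letters and shows no binding, and no match says only that these letters are not in the window.

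Beyond the collagens, matrix genes were mixed. Of 22 elastic fiber, proteoglycan and matricellular genes, 1 was called positive and 1 negative, against 2.04% and 1.85% of all genes tested. *Lum*, which encodes the collagen-binding proteoglycan lumican, fell with DOX in both states, by 2.21 on the log2 scale without a tumor and by 1.08 with one, and its interaction was 1.13 ± 0.28 (adjusted p = 0.0226), or 0.99 and not called without DOX 3. *Lox*, which encodes the enzyme that cross-links collagen, had an interaction of −2.90 ± 0.69 (adjusted p = 0.0188), with 47.1, 33.9, 48.0, 77.4 and 27.5 CPM in DOX against 7.61, 6.44, 5.21, 3.77 and 4.25 in Control. It was high in Tb 5 at 53.01 CPM against 5.05 to 24.3 in the other Tb libraries, and −2.15 without Tb 5. Among 14 matrix proteases and inhibitors, 2 were called (14.3%, against 3.89% of all genes tested). *Mmp14*, a membrane-bound collagenase, was negative at −1.72 ± 0.47 (adjusted p = 0.0297) and *Mmp15* positive at 1.11 ± 0.32 (adjusted p = 0.0370). Without 1 library they ranged from −1.92 to −1.31 and from 0.96 to 1.26, and the call was lost in 6 and in 11 of the 21 refits. Of 17 TGF-beta ligands, receptors and targets none was called, against 3.89% of all genes tested. Of 23 endothelial genes only *Apln*, the ligand of the apelin receptor, was called (4.35%, near the 3.89% of all genes tested). Its interaction was 1.76 ± 0.55 (adjusted p = 0.0469), with the call lost in 15 of the 21 refits (1.49 to 2.06).

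Among negative calls, *Tmx1* had the smallest p-value. *Tmx1* (chr12:70499869-70514814) encodes a thioredoxin-like redox protein of the endoplasmic reticulum membrane. Control hearts had 61.5, 60.8, 53.3, 68.8 and 69.2 CPM and DOX hearts 111, 137, 173, 142 and 129 CPM. Tb hearts had 69.5 to 101 (median 78.8) CPM and Tb-DOX hearts 90.5, 83.0, 92.1, 75.7 and 82.2 CPM. Every DOX library lay above every other library, and the tumor-bearing groups overlapped each other. The interaction was −1.09 ± 0.16, adjusted p = 0.00625, kept in each fit without 1 library and lost, at −0.95, with library totals and without DOX 3 and 4. It was also lost by limma on log2(FPKM + 1), limma on log2(FPKM + 0.1) and voom with sample weights.

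*Srsf5*, *Pop4* and *Sf1* were also among the negative calls with the smallest p-values. *Srsf5* encodes a serine- and arginine-rich splicing factor. It had 379.8, 311, 292, 312 and 316 CPM in Control and 759.5, 883, 907, 924 and 686 CPM in DOX. In tumor-bearing hearts it had 304 to 909 (median 388) CPM with saline and 419, 472, 453, 465.7 and 388 CPM with DOX. DOX lay above Control and Tb-DOX without overlap, while Tb 5, at 909 CPM, and Tb 6, at 629 CPM, stood above the other Tb libraries. The interaction was −1.54 ± 0.29 (adjusted p = 0.00885), and −1.28 without Tb 5. *Sf1*, which encodes the protein that binds the intron branch point, had an interaction of −1.07 ± 0.21 (adjusted p = 0.00963), below the limit of 1 in size at −0.90 without Tb 5 and at −0.96 without DOX 4. *Pop4*, a subunit gene of ribonuclease P, had an interaction of −1.48 ± 0.27 (adjusted p = 0.00769), with DOX at 13.3, 9.31, 11.3, 11.0 and 11.1 CPM and Control at 3.81, 4.06, 4.29, 4.15 and 3.597 CPM.

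*Mir22hg*, the host transcript of miR-22, had 29.5, 24.2, 22.6, 21.9 and 22.0 CPM in Control and 131, 139, 168, 173 and 92.1 CPM in DOX. The Tb libraries had 25.8 to 167 (median 33.1) CPM and the Tb-DOX libraries 50.7, 38.5, 33.9, 54.8 and 34.3 CPM. All DOX libraries were above all Control and Tb-DOX libraries, and the highest Tb value was Tb 5. The interaction was −2.98 ± 0.54, adjusted p = 0.00769, and −2.29 without Tb 5. *Gpr17*, a G protein-coupled receptor gene, had an interaction of −1.33 ± 0.25 (adjusted p = 0.00875).

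Of 25 antioxidant and glutathione genes, 2 were called, both negative (8%, against 1.85% of all genes tested), and the list's median interaction was −0.26. *Gclc* encodes the catalytic subunit of the enzyme that sets the rate of glutathione synthesis. It had 13.2, 13.01, 12.02, 13.2 and 11.7 CPM in Control, 24.1, 31.9, 55.3, 31.7 and 21.3 CPM in DOX, 14.9 to 29.2 (median 17.97) CPM in Tb and 13.7, 15.6, 18.5, 21.3 and 18.3 CPM in Tb-DOX. Control was lowest without overlap, and DOX lay above every Control and Tb-DOX library, narrowly for the latter, and overlapped Tb through Tb 5. The interaction was −1.54 ± 0.29 (adjusted p = 0.00875), and −1.19 without DOX 3 and 4. *Txnrd1*, which encodes a selenoprotein that keeps thioredoxin reduced, had an interaction of −1.49 ± 0.37 (adjusted p = 0.0220), −1.09 without Tb 5, and, not called, −1.16 without DOX 3 and 4 (adjusted p = 0.108); voom did not call it either. *Nqo1*, a quinone reductase gene, passed the adjusted p but not the limit on size, at −0.84 ± 0.17 (adjusted p = 0.0106).

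Of 21 genes of the ATF4 stress response and amino acid transport, 4 were called negative and 1 positive, against 1.85% and 2.04% of all genes tested. DESeq2 called 4 of the list, voom 3, limma on log2(FPKM + 1) 1 and limma on log2(FPKM + 0.1) 2. *Slc7a1* encodes a cationic amino acid transporter. It had 26.0, 30.4, 35.1, 38.1 and 38.3 CPM in Control and 72.1, 73.5, 67.5, 123 and 81.0 CPM in DOX. With a tumor it had 24.4 to 74.8 (median 38.7) CPM without DOX and 32.3, 36.8, 34.0, 31.7 and 44.3 CPM with it. DOX was above Control and Tb-DOX without overlap, and 1 Tb library, Tb 5, reached the DOX range. The interaction was −1.55 ± 0.31, adjusted p = 0.0104, and it was called in each of the 21 refits and without DOX 3 and 4 (−1.41). *Slc3a2*, the heavy chain shared by several amino acid transporters, was negative at −1.25 ± 0.29 (adjusted p = 0.0181) and had Control apart: the means were 24.7 CPM in Control and 52.1, 48.8 and 43.3 CPM in DOX, Tb and Tb-DOX. *Slc38a2*, a neutral amino acid transporter with DOX apart and high, was negative at −1.23 ± 0.38 (adjusted p = 0.0465). *Aldh18a1*, which encodes the first enzyme of proline synthesis from glutamate, was positive at 1.38 ± 0.33 (adjusted p = 0.0191), with 6.003 CPM in Control and 2.20 in DOX. Without DOX 3 and 4 neither *Slc3a2* (−0.97, adjusted p = 0.0919) nor *Aldh18a1* (1.52, adjusted p = 0.0509) was called.

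*Atf3*, a stress-induced transcription factor gene, was called at −5.79 ± 1.67 (adjusted p = 0.0353), and 2 libraries carried the value. DOX libraries had 4.60, 3.65, 6.06, 11.0 and 159 CPM and Control libraries 9.93, 3.15, 2.00, 4.45 and 3.14 CPM. Tb libraries had 1.82 to 189 (median 5.103) CPM, and Tb-DOX libraries 6.79, 4.79, 3.26, 5.67 and 5.38 CPM. Apart from DOX 5 and Tb 5 the groups overlapped. Without Tb 5 the interaction was −2.88 and not called, and the call was lost in 11 of the 21 refits (−6.31 to −2.88), the one without DOX 5 among them.

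The same library weighed on other immediate early and cytokine response genes. *Xirp1*, a gene of an actin-binding repair protein of the intercalated disc, had 219, 162, 156, 176 and 169 CPM in Control, 365, 371, 744, 999 and 1332 CPM in DOX and 187, 152, 201, 201 and 292 CPM in Tb-DOX. In Tb it had 126 to 1926 (median 174) CPM, and Tb 5 was the high value. DOX lay above every library of Control and Tb-DOX and above the other 5 Tb libraries. The interaction was −3.26 ± 0.85 (adjusted p = 0.0251) and −1.78 without Tb 5. It was called in each of the 21 refits, but not without DOX 3 and 4 (−3.11, adjusted p = 0.0863) or by limma on log2(FPKM + 1) or log2(FPKM + 0.1). *Csrp3*, a mechanosensing Z-disc gene, had an interaction of −1.06 ± 0.27 (adjusted p = 0.0251) and −0.78 without Tb 5, where it was not called. Of 24 sarcomere and Z-disc genes, these 2 were called (8.33%, against 1.85% of all genes tested called negative), and neither limma fit called any. *Nr4a3*, an orphan nuclear receptor gene, moved from −3.50 ± 0.84 (adjusted p = 0.0192) to −2.36 without Tb 5. Of 19 immediate early genes, *Atf3* and *Nr4a3* were called (10.5%, against 1.85%) and 16 were below 0, with a median of −1.15 that rested on Tb 5, since it was −0.10 without that library and 0.08 without Tb 5 and 6.

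Of 19 STAT3 and acute phase genes, which respond to interleukin-6 type cytokines, all 19 had a negative interaction, with a median of −1.49, and 3 were called (15.8%, against 1.85% of all genes tested called negative), where DESeq2 called 4 and limma with either pseudocount and voom none. *Socs3*, the feedback inhibitor of this pathway, had 2.97, 1.26, 2.46, 1.36 and 1.64 CPM in Control and 4.06, 5.89, 10.7, 15.2 and 4.53 CPM in DOX. It had 8.46 to 198 (median 20.1) CPM in Tb and 22.5, 19.1, 16.5, 28.2 and 12.3 CPM in Tb-DOX. Control lay below all other libraries, DOX and Tb-DOX overlapped only through DOX 4 and Tb-DOX 5, and Tb 5 stood far above the rest. The interaction was −3.37 ± 0.93, adjusted p = 0.0308, and −2.07 without Tb 5, and the call was lost in 5 other refits. *Osmr*, the oncostatin M receptor, had an interaction of −1.49 ± 0.40 (adjusted p = 0.0290) and *Bcl3*, an NF-kappaB cofactor, one of −2.50 ± 0.69 (adjusted p = 0.0312), both with Control apart and low. Without DOX 3, and likewise without DOX 4, none of the 3 was called, with interactions without DOX 4 of −3.03, −1.18 and −2.30. The list's median was −0.80 without Tb 5 and −0.50 without Tb 5 and 6.

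The lists for muscle atrophy, autophagy and the clock, which share members, held 4 called genes between them (*Bnip3*, *Ctsl*, *Per1* and *Cry2*), all negative. That is 2 calls among 22, 21 and 19 members (9.09%, 9.52% and 10.5%), against 1.85% of all genes tested called negative. *Bnip3*, a mitochondrial receptor for autophagy, had 189, 166, 199, 146 and 154 CPM in Control, 401, 502, 540.1, 668 and 248 CPM in DOX, 171 to 442 (median 242) CPM in Tb and 265, 277, 281, 274 and 238 CPM in Tb-DOX. Every DOX library was above every Control library, and 1 DOX library lay within the Tb-DOX range. The interaction was −1.52 ± 0.32, adjusted p = 0.0135, and −1.22 without DOX 3 and 4, where it was not called (adjusted p = 0.0642). *Ctsl*, a lysosomal protease gene, had an interaction of −1.51 ± 0.42 (adjusted p = 0.0306) that was −0.89 and not called without DOX 3 and 4, and it ranged from −1.72 to −1.18 without 1 library, with the call lost without DOX 3, DOX 4, Tb-DOX 3 or Tb-DOX 5 and with library totals. The clock repressors *Per1* (−1.72 ± 0.45, adjusted p = 0.0267) and *Cry2* (−1.15 ± 0.29, adjusted p = 0.0233) were both higher in DOX, at group means of 141 and 61.8 CPM, than in Control, at 53.8 and 32.4 CPM. *Cry2* was not called without Tb 5, at −0.86. Of 22 atrophy and glucocorticoid response genes 19 were below 0, with a median of −1.18, and 2 were called. This median was −0.66 without Tb 5 and −0.58 without both Tb 5 and 6. *Trp53inp1* was the 1 call among 21 p53 targets (4.76%, near the 3.89% of all genes tested), at −2.25 ± 0.62 (adjusted p = 0.0312). It ranged from −2.46 to −1.54 without 1 library, with the call lost in 7 of the 21 refits, and was −1.24 and not called without Tb 5 and 6. *Pfkfb3*, a switch of glycolytic flux, was the 1 call among 29 genes of glycolysis, glycogen and the pentose phosphate pathway (3.45%, near the same 3.89%). Its interaction was −2.77 ± 0.71 (adjusted p = 0.0244) and −1.85 without Tb 5.

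Of 10 imprinted growth genes, 3 were called, all negative, against 1.85% of all genes tested, while 6 of the 10 were above 0 and the median was 0.08. The 3 were also called without DOX 3 and 4, but *Peg3* was lost without Tb 5 and 6 (−1.15), and *H19* and *Peg3* with library totals (−1.27 and −1.40). *Plagl1*, a zinc finger gene of the imprinted network, had 4.19, 3.15, 2.52, 4.22 and 3.34 CPM in Control and 8.39, 15.1, 9.32, 10.9 and 14.0 CPM in DOX. In Tb it had 5.91 to 12.2 (median 6.87) CPM and in Tb-DOX 8.42, 10.4, 6.81, 10.1 and 7.66 CPM. Control lay below every other library. The interaction was −1.67 ± 0.32, adjusted p = 0.00885. *H19*, the noncoding partner of *Igf2*, followed at −1.43 ± 0.40 (adjusted p = 0.0319; called in 14 of the 21 refits, −1.62 to −1.26) and *Peg3*, a paternally expressed zinc finger gene, at −1.56 ± 0.48 (adjusted p = 0.0451), the latter called in 8 of the 21 refits (−1.78 to −1.26).

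**Figure D4:**
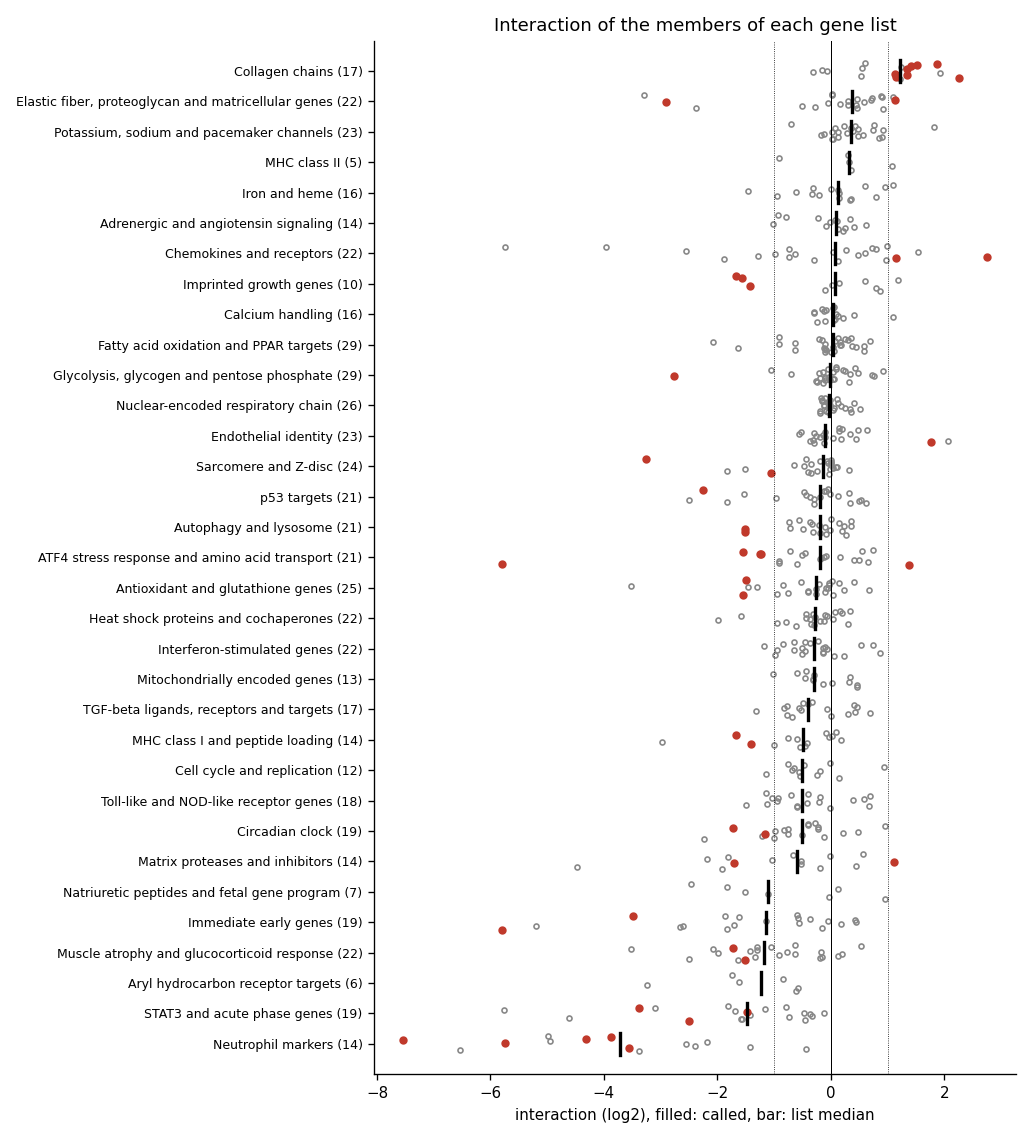
Interaction (log2) of each member of 33 gene lists, ordered by list median (black bar), with called members filled in red, others as open gray circles, dotted lines at −1 and 1, and the number tested in parentheses. Collagen chains lie highest with a median of 1.22, and STAT3 and acute phase genes and neutrophil markers lie lowest with −1.49 and −3.72.

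Called immune genes had both signs. Of 14 neutrophil markers, 5 were called and all were negative (*Cxcr2*, *Mmp8*, *Retnlg*, *S100a8*, *S100a9*), against 1.85% of all genes tested. The values of the 14 had a median of −3.72. Both the count and the median are a description only, since these genes were high in the tumor-bearing groups and near 0 in Control. The mean FPKM that let them be tested came largely from the tumor-bearing groups. *S100a9*, a calcium-binding alarmin of neutrophils, had 0.645, 0.629, 0.401, 1.96 and 0.392 CPM in Control and 5.68, 2.48, 26.2, 10.3 and 3.02 CPM in DOX. It had 259 to 2208 (median 903) CPM in Tb and 935, 1106, 787, 1567 and 377 CPM in Tb-DOX. The tumor-bearing groups lay far above both other groups and overlapped each other, and DOX lay above Control. The change with DOX was 3.62 without a tumor and −0.26 with one, and the interaction was −3.88 ± 0.93 (adjusted p = 0.0191). *Retnlg* was at 0 in 4 Control libraries and at 0.0754 CPM in Control 4, so its fitted value depends on the prior count. The neutrophil marker sum was 4.12 to 30.6 CPM in Control, 14.5 to 82.3 in DOX, 645 to 6159 in Tb and 968 to 4076 in Tb-DOX. On a linear scale, as a difference of differences of mean CPM, *Mmp8* was the 1 gene of all 544 with the other sign. Without DOX 3 and 4 none of the neutrophil markers was called, 3 were called without Tb 5 and 6, DESeq2 called 10 of the 14, limma on log2(FPKM + 0.1) called 2, and limma on log2(FPKM + 1) and voom called none.

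Of 14 class I antigen presentation genes, 2 were called, both negative (14.3%, against 1.85% of all genes tested). They were *H2-Q4* (−1.42 ± 0.38, adjusted p = 0.0283) and the peptide transporter gene *Tap1* (−1.68 ± 0.52, adjusted p = 0.0454), and neither was called without DOX 4, at −0.98 and −0.87. *Tap1* was called in 6 of the 21 refits. Of 22 chemokine and receptor genes, 2 were called positive (9.09%, against 2.04% of all genes tested) and 0 negative, while 12 had values above 0. *Ccl21a*, a lymphatic chemokine, fell by 2.35 with DOX without a tumor and by 1.21 with one (log2; interaction 1.14 ± 0.30, adjusted p = 0.0247), and *Ccl24*, an eosinophil chemokine, had an interaction of 2.75 ± 0.74 (adjusted p = 0.0286; 2.37 to 3.05 without 1 library, lost in 4 refits). *Ccl21a* was lost without DOX 3, with an adjusted p of 0.0506 at 1.05. *Ccl24* was not called by limma with either pseudocount, by voom, with a replicate block or without DOX 3 and 4. *F13a1*, a gene of tissue macrophages, was the 1 call among 13 macrophage markers (7.69%, against 3.89% of all genes tested), at 1.23 ± 0.37 (adjusted p = 0.0418; lost in 13 of the 21 refits, 1.04 to 1.57). The sum of these markers was 279 to 348 CPM in Control, 145 to 244 in DOX, 347 to 452 in Tb and 227 to 513 in Tb-DOX. *Cd3e*, a T cell receptor subunit gene, was called at −7.60 ± 1.84 (adjusted p = 0.0192), with 311 CPM in DOX 4 and 42.7 CPM in Tb 5 against at most 14.2 CPM in each of the other 19 libraries. All T cell markers together summed to 314 CPM in DOX 4, so this gene stood nearly alone there, and it was not called without DOX 4 (−4.67) or without Tb 5 (−4.93).

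*Alas2*, which encodes the first enzyme of heme synthesis in red cell precursors, was the 1 called gene of all 544 whose change with DOX had the same sign in both states and was larger with a tumor. It had 5.35, 7.83, 20.9, 7.62 and 9.09 CPM in Control and 0.879, 5.04, 1.46, 3.63 and 1.59 CPM in DOX. It had 10.6 to 25.2 (median 17.1) CPM in Tb and 0.225, 0.485, 0.145, 2.12 and 0.718 CPM in Tb-DOX. Both DOX-treated groups lay below their saline groups, and Tb-DOX was lowest with an overlap with DOX. The interaction was −2.50 ± 0.72 (adjusted p = 0.0352), lost in 10 of the 21 refits (−3.41 to −2.09). The other 4 erythroid genes tested, all globin genes, were below 0 and not called by edgeR, and DESeq2 called 2 of the 5 erythroid genes. The erythroid sum was 205 to 802 CPM in Control, 4.94 to 133 in DOX, 372 to 838 in Tb and 2.47 to 29.1 in Tb-DOX.

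Among the genes tested, DOX gave calls of opposite direction in the 2 states in 2 genes. *Ssu2*, a gene linked to tooth formation, had 2.71, 3.99, 6.07, 3.70 and 4.71 CPM in Control, 2.44, 1.86, 1.53, 2.34 and 1.59 CPM in DOX, 0.968 to 3.02 (median 1.60) CPM in Tb and 5.16, 3.64, 3.19, 4.58 and 3.29 CPM in Tb-DOX. Tb-DOX lay above every Tb and DOX library, and DOX below every Control library. The interaction of 2.25 ± 0.41 (adjusted p = 0.00769) stayed called in each of the 21 refits. *Tnp1*, which encodes a transition protein of sperm chromatin, had 1.10, 0.490, 0.344, 0.151 and 0.392 CPM in Control and 0, 0.606, 0.724, 0.572 and 0.538 CPM in Tb-DOX. It was at 0 in all 5 DOX libraries and in 5 Tb libraries and at 0.0605 CPM in Tb 5, so no fold is given. DESeq2 did not call its interaction. Of 15 germ cell markers, *Tnp1* was the only 1 that reached a mean FPKM of 0.5, so the others were not tested for opposite changes. The summed germ cell markers were 3.26 to 10.1 CPM in Control, 0.155 to 0.338 in DOX, 0.0618 to 0.286 in Tb and 8.41 to 9.33 in Tb-DOX 2 to 5, with 0.449 in Tb-DOX 1. The source of these transcripts in heart libraries was not tested.

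**Figure D5:**
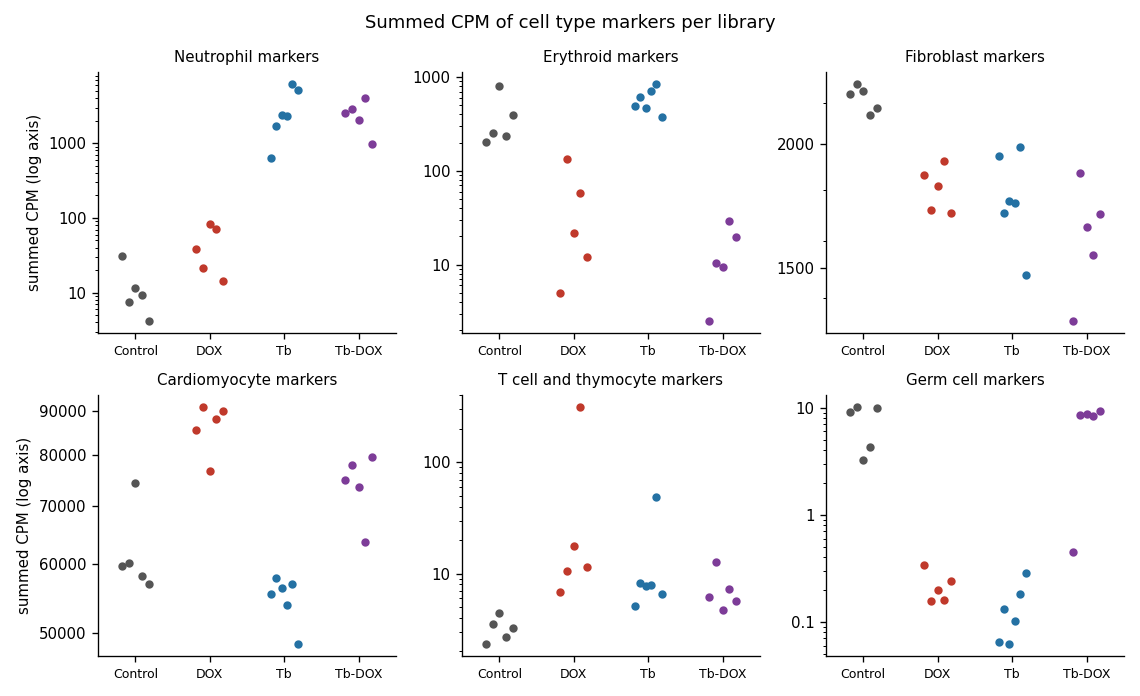
Summed CPM of cell type markers on log axes in every library of the 4 groups, for neutrophils, erythroid cells, fibroblasts, cardiomyocytes, T cells and germ cells. Neutrophil markers reach 645 CPM or more in every tumor-bearing library, and the high T cell sum belongs to DOX 4.

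The remaining patterns held few genes. With Control apart and high, *Kif13b*, a kinesin gene, had 46.4 CPM in Control against 21.9, 29.9 and 30.2 CPM in DOX, Tb and Tb-DOX (interaction 1.10 ± 0.19, adjusted p = 0.00769), and *Pltp*, which encodes phospholipid transfer protein, gave 1.26 ± 0.26 (adjusted p = 0.0129). *Kif13b* was not called without DOX 3 and 4 (0.96), without Tb 5 and 6 (0.94), by limma on log2(FPKM + 1) or by voom, and *Pltp* not without DOX 3 and 4 (1.18, adjusted p = 0.0597). With Tb-DOX apart and low, *Ccn1*, a matricellular early response gene, had 14.6, 15.3, 16.8, 12.4 and 19.02 CPM in Tb-DOX against 43.3, 38.3, 37.3, 35.8 and 39.5 CPM in Control. It had 47.8, 16.0, 50.2, 98.6 and 68.9 CPM in DOX and 29.3 to 579 (median 40.2) CPM in Tb. Tb-DOX lay below every Control and Tb library and overlapped 1 DOX library. The interaction was −3.57 ± 0.95 (adjusted p = 0.0274) and −1.81 without Tb 5. *Ccn1* was not called by limma with either pseudocount, by voom, with a replicate block or without DOX 3 and 4 (−3.22). *Nuak1*, a stress kinase gene (−1.71 ± 0.49, adjusted p = 0.0355), and *Taf7*, a subunit gene of the general transcription factor TFIID (−1.03 ± 0.31, adjusted p = 0.0429), had the same pattern and lost the call in 10 and 14 of the 21 refits, with ranges of −1.92 to −1.21 and −1.14 to −0.75. *Slc26a10* was the 1 gene with Tb apart, with 5.81 to 26.9 (median 20.7) CPM in Tb against 31.2, 34.6, 44.1, 42.8 and 36.6 CPM in Control, 47.3, 37.6, 35.8, 26.8 and 31.7 in DOX and 38.3, 37.2, 47.5, 36.4 and 44.0 in Tb-DOX (interaction 1.14 ± 0.34, adjusted p = 0.0389). It was called in 8 of the 21 refits (0.95 to 1.26).

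In 15 of 32 functional lists no member of 246 tested was called by edgeR's quasi-likelihood test, against 3.89% of all genes tested. At an unadjusted p under 0.05 there were 57 (23.2%), against 28.9% of all genes tested, and DESeq2 called 7, voom with sample weights 2, limma on log2(FPKM + 1) 2 and limma on log2(FPKM + 0.1) 4. The 26 nuclear-encoded respiratory chain genes had interactions from −0.19 to 0.52 and a median of −0.03, and the 29 fatty acid oxidation genes a median of 0.03. Of 23 potassium, sodium and pacemaker channel genes, 20 were above 0, with a median of 0.36, or 0.21 without DOX 3 and 0.19 without DOX 3 and 4. The 5 MHC class II genes had medians of −3.08 without and −2.61 with a tumor, with 4 called lower in each state and none with an interaction. Calcium handling (16 tested), heat shock proteins (22), interferon-stimulated genes (22), Toll-like and NOD-like receptors (18), TGF-beta (17), iron and heme (16), adrenergic and angiotensin signaling (14), mitochondrially encoded genes (13), cell cycle (12), the fetal gene program (7) and aryl hydrocarbon receptor targets (6) make up the rest. The aryl hydrocarbon receptor targets were all below 0, with a median of −1.23, or −0.76 without Tb 5 and −0.69 without Tb 5 and 6. All 6 had an unadjusted p under 0.05, 2 passed the adjusted p but not the limit on size, and DESeq2 called 2. Of the 7 fetal program genes, 4 had an unadjusted p under 0.05. The median of that list was −1.12, or −0.77 without Tb 5 and −0.66 without Tb 5 and 6. Of the marker lists for atrial (8 tested), B (3), adipocyte (4), Leydig (3), skeletal muscle (7) and epithelial and 4T1 cells (2), edgeR called no member, against 3.89% of all genes tested. With so few members tested, the lack of a call says little about these lists. At an unadjusted p under 0.05 these held 1 atrial, 1 adipocyte and 4 skeletal muscle genes, and of the skeletal muscle genes DESeq2 called 3 and limma and voom 1 each. A call that was not made does not show an equal change, since the median SE of an interaction was 0.24.

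Near the limit on size, *Steap4* at −0.9997 and *Zbtb40* at 0.9997 passed the adjusted p but not the fold, while *Poglut3* at 1.0009 was called. With no limit on size 1251 genes (8.94%) passed, 552 of them positive and 699 negative, so the majority of directions turned to negative when small interactions were counted.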

How the data were processed

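RNA was measured in 21 heart libraries, whose groups come from the sample titles. The deposited table holds counts per gene and FPKM, which the authors made from paired-end reads. The submitters' processing notes name cutadapt, FastQC, HISAT2, HTSeq 0.6.1, DESeq2 1.34.0 and GRCm39. The FPKM values were within 0.01 FPKM of the deposited counts scaled to gene length and library depth, in every value compared. All 21 count columns were fitted with edgeR 4.0.16 (R 4.3.3; TMM, quasi-likelihood test, 1 coefficient per group), the interaction was the contrast (Tb-DOX minus Tb) minus (DOX minus Control), and p-values were adjusted over the 13990 genes whose FPKM averaged 0.5 or more. CPM are TMM-scaled; log2 CPM used a prior count of 2. No column of per-sample values was left unmapped. limma 3.58.1 and DESeq2 1.42.0 served as alternatives.

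Named were the 8 genes per direction with the smallest p and a gene symbol proper, up to 3 called members of each list, up to 3 genes per pattern, and genes that DOX moved in opposite directions, 61 in all. The examples near the limit on size and *Nqo1* and *Slc38a2*, and the further called members of the collagen and neutrophil lists, were chosen after their values were seen. The comparison and the lists were chosen with earlier results of these data known. No replicates were identical or within sampling noise (chi-square per degree of freedom of at least 5.38). Where nothing says that libraries came from separate animals, p-values measure the spread between libraries. Promoter sequences are RefSeq windows on GRCm38.p6, shown apart from the GRCm39 coordinates of the table.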

Additional observations from a re-analysis of the deposited data

Results flagged for a closer look

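Among 136 group-wise checks of 29 gene levels and 5 marker sums, 25 held a library whose gap to its nearest neighbor passed Dixon's limit (18.4%, where chance gives about 1 in 20), and 11 of these were in Tb 5 and 3 in DOX 4. Tb 5 was high for *Mir22hg* (167 CPM), *Gclc* (29.2), *Xirp1* (1926), *Socs3* (198), *Atf3* (189), *Ccn1* (579), *Trp53inp1* (219), *Cd3e* (42.7), *Tnp1* (0.0605) and the T cell marker sum (49.2), and low for *Stab1* (24.0). DOX 4 was high for *Slc7a1* (123 CPM), *Cd3e* (311) and the T cell marker sum (314), and DOX 5 for *Atf3* (159). In Control, replicate 3 was low for *Lum* (115 CPM) and high for *Alas2* (20.9), replicate 1 was high for *Srsf5* (379.8) and the neutrophil marker sum (30.6), and replicate 4 was high for *S100a9* (1.96) and *Retnlg* (0.0754). Tb-DOX 2 was high for *Cd3e* (9.39 CPM), Tb-DOX 1 was low for *Tnp1* (0) and the germ cell marker sum (0.449), and Tb 1 was low for the macrophage marker sum (347).

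The change with DOX differed between tumor-bearing and non-tumor-bearing mice, by the interaction test, in 544 genes. In *Tnp1* and *Ssu2* DOX passed the limits in opposite directions in the 2 states. For *Ssu2* the interaction was 2.25 on the log2 scale. For *Tnp1*, which was at 0 in the DOX libraries, the difference of the 2 changes in mean CPM was 0.973 CPM.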

How the results depend on the processing

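All 544 called genes kept the sign of the interaction in every setting that tested them, which were 157 genes among those with a mean FPKM from 5 and 544 in each other setting. The number of calls was 551 with median-ratio size factors, 503 with robust moderation and 753 with DESeq2. It was 140 (53 positive, 87 negative, 77 with DOX apart) in the 5668 genes whose FPKM averaged 5 or more, and 799 with 413 negative with no filter. Library totals gave 472 positive and 169 negative calls. limma on log2(FPKM + 1) gave 225 (162 positive, 63 negative, 127 with DOX apart), limma on log2(FPKM + 0.1) 456 positive and 88 negative, and voom with sample weights 445 with 156 negative. With these 2 pseudocounts the median over all genes moved to 0.11 and 0.16. No minimum on size gave 1251 (552 positive, 699 negative, 710 with DOX apart), and an adjusted p under 0.01 gave 44 (31, 13 and 34). The cause of these differences was not tested. Leaving out 1 library gave 318 (without DOX 3) to 751 (without Tb 1) calls, 156 to 380 positive, 149 to 375 negative and 189 to 430 with DOX apart. Settings chosen after seeing the data left out 2 libraries each. Without DOX 3 and 4 there were 75 calls (47 positive, 28 negative, 50 with DOX apart), and without Tb 5 and 6 there were 364, of which 130 were negative. Voom gave Tb 5 a weight of 0.125, its lowest.

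The groups share replicate numbers that no label ties to a litter or batch, and the residuals of same-numbered libraries correlated by −0.23 to 0.21 over 30 pairs, with 3 pairs over 0.1, so the numbers were not taken as pairs. A replicate block gave 250 calls (145 positive, 105 negative, 155 with DOX apart), of which 238 were among the 544. Of the 61 genes chosen for naming, 33 were called with it, and *Lox*, *S100a9*, *Nr4a3*, *Per1*, *Pfkfb3*, *Col1a1* and *H19* were among those lost. Depth limits low genes: in 13 called genes a group lay at or under 3 counts per library.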
